A study of Mus musculus with 2 samples.

Results

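The 10 genes described here encode transcription factors that set or keep the identity of endothelial cells: Sox7, Sox17 and Sox18 of the SOXF group, the SOXC factor Sox4, the ETS factors Erg, Fli1 and Ets1, the zinc finger factor Gata2, the orphan nuclear receptor Nr2f2 (COUP-TFII) and the basic helix-loop-helix factor Tal1. They were chosen by name, and all 10 were among the 19831 genes of both deposited tables. The cells had been sorted on the surface protein CD31 from tumours of adult C57BL/6 mice and run on the 3′ v3.1 droplet chemistry of 10x Genomics, which tags the 3′ ends of transcripts. The titles name a control library and an NF2 KO library, 1 of each, the latter for knockout of Nf2, which encodes merlin, an activator of the Hippo pathway. The sources used here do not give the tumour, the number of mice, any Cre driver, the exons removed or any treatment that both libraries shared.

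ETS factors bind a short GGAA core found in the control regions of most endothelial genes, and ERG, FLI1 and ETS1 share it. SOXF factors act with them and with Notch signalling, and are known for arterial specification and vessel growth. NR2F2 is the factor of venous identity and holds Notch and arterial genes down, while GATA2 and TAL1 work together in endothelial and blood-forming cells.

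The control library held 2826 cells and the NF2 KO library 3368, with medians of 5386.5 and 15588.5 UMIs (molecules counted by unique molecular identifier) per cell. The barcodes carried 1 of 2 run numbers in each library, and the cells of control run 1 were the shallowest, with a median of 2746 UMIs against 14337 to 19409 in the other 3 runs. Only 1 barcode sequence occurred in both libraries. After filters on quality, doublets and clusters that were shallow or led by markers of other cell types, 1668 control cells (29520696 UMIs) and 2805 NF2 KO cells (53334064 UMIs) were retained. Of 19 general endothelial markers all were detected, and their summed level in counts per 1000000 UMIs (CPM) was 11162 in control against 8455 in NF2 KO cells, and 5 of the 19 were lower in the NF2 KO by the size rule below. The Nf2 level was 20.8 and 22.7 CPM in the control runs and 20.2 and 20.3 CPM in the NF2 KO runs (ratio 0.934, 95% interval 0.846 to 1.03). A 3′ tag need not lie in the deleted exons, so this level checks nothing about the knockout.

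With 1 library per group there is no biological replicate and no test between the genotypes. Each level is given with a 95% interval that covers counting error only. The runs are parts of a library, and their spread is shown beside the difference between libraries. A gene was called higher or lower when the ratio of CPM, NF2 KO over control, reached 1.5 either way with an interval that left out 1, and the mean of both libraries was 20 CPM or more. Of 5830 genes with that mean level, 2.85% were called higher and 5.27% lower, and the median log2 ratio was −0.03.

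Sequence before the start sites was searched for short motif cores. The RefSeq promoter table (GRCm38.p6) held 5 of the 10 members: Sox4, Erg, Gata2, Nr2f2 and Tal1. The windows below run from 250 to 21 bases before an annotated start and are printed for Sox4 and the most upstream start of Erg, since these genes had their highest mean levels in the same cluster of cells, described below. Capitals mark the ETS core GGAA on either strand.

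Sox4 (chr13:28953720-28953949, minus strand): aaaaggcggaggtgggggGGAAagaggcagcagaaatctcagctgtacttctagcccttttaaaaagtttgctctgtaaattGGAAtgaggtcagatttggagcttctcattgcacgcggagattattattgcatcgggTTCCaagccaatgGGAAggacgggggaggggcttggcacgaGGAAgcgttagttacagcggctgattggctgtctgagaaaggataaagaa

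Erg (chr16:95586614-95586843, minus strand): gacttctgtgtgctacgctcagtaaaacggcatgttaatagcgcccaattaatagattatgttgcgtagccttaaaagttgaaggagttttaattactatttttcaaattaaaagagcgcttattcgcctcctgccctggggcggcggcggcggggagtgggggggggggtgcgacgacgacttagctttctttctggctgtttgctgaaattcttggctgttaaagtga

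The Sox4 window held the ETS core 5 times, and the window at this Erg start held none. The core occurs in 91.9% of the 32851 promoter windows of this length in the table, so most promoters hold it. At the other Erg starts in the table, start 2 had 4 cores and start 3 had 1. Neither printed window held the hypoxia response core ACGTG, which 15.1% of all windows hold, nor the SOX core ACAAT, which 26.4% hold. The TEAD core GGAATG, which overlaps the ETS core and is found in 11.8% of windows, occurred at 1 place in the Sox4 window. Among windows not printed, the TEAD core also occurred at 1 place each at Erg start 2, Gata2 start 2 and Tal1 start 1. Erg start 3 held 1 SOX core. These are matches of letters on both strands and do not show binding.

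Sox18 (chr2:181669836-181671640, minus strand, GRCm38) had the largest difference between the libraries among the members. Its level was 361 CPM in run 1 and 382 CPM in run 2 of the control, and 236 and 204 CPM in runs 1 and 2 of the NF2 KO. The control runs were both above the NF2 KO runs, and their gap exceeded the difference between runs of either library. Summed over runs it was 372 CPM (95% interval 365 to 379) against 216 CPM (212 to 220), a level 1.73-fold lower in the NF2 KO (1.68 to 1.77). The ratio of 0.579 kept its side of the size rule in 16 of 16 other ways of processing, where it lay between 0.534 and 0.654.

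Sox4 (chr13:28948919-28953713, minus strand), which is widely expressed and acts in progenitor and tumour cells as well as in vessels, was the other member called lower. It stood at 266 and 231 CPM in the control runs and at 177 and 145 CPM in the NF2 KO runs. The groups of runs did not overlap, although the runs of 1 library differed by more than counting error in both libraries. Over both runs the level was 248 CPM (242 to 254) against 156 CPM (153 to 159), 1.59-fold lower in the NF2 KO. The call was lost in 4 of 16 alternatives. These were the control library without run 1 (ratio 0.676), the NF2 KO library without run 2 (0.714), all cells but those of cluster 2, described below (0.743), and cells kept one by one by their own markers (0.909). A noncoding gene, Gm26735, overlaps Sox4 on the other strand, as others do for Sox17, Fli1, Ets1 and Nr2f2, and whether counting used strand is not stated.

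**Figure D1:**
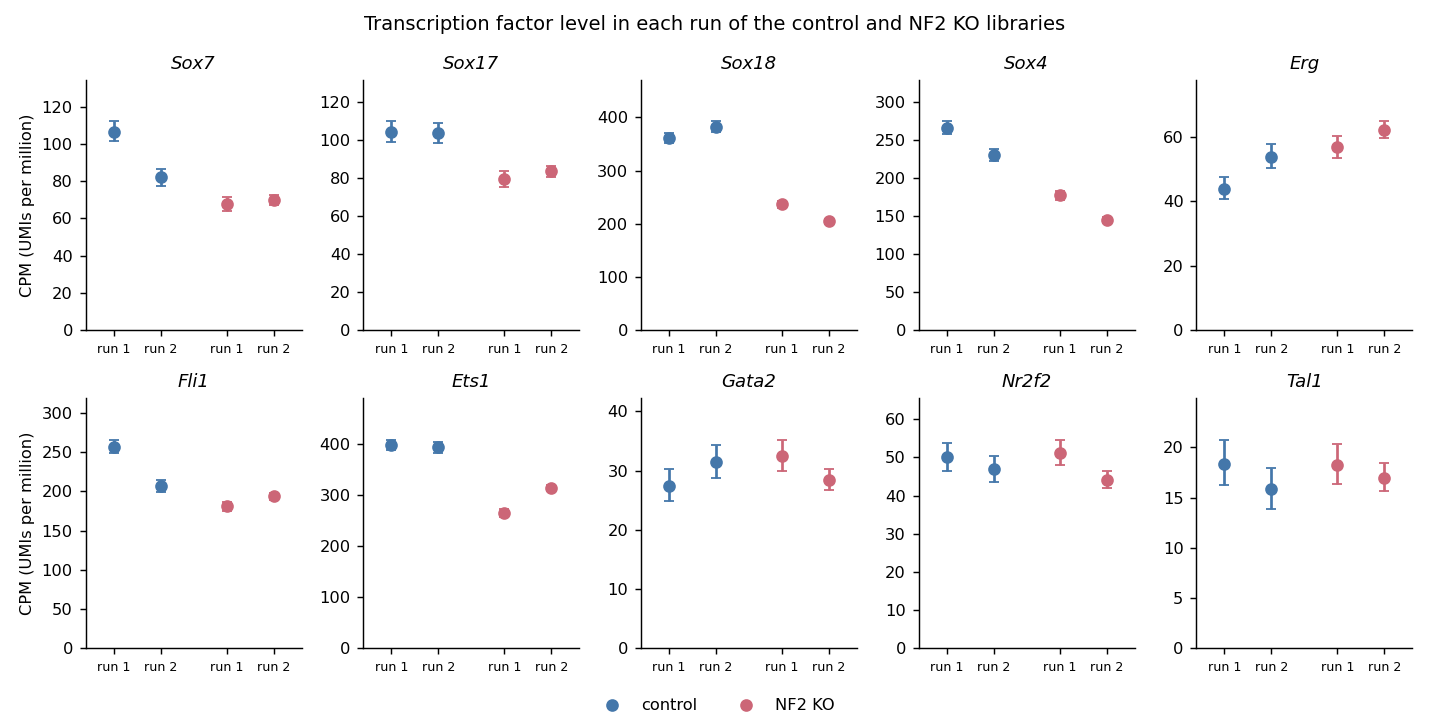
Levels of the 10 transcription factors in CPM (linear axes from 0) in run 1 and run 2 of the control (blue) and NF2 KO (red) libraries; points are summed retained cells and bars are 95% Poisson intervals for counting error. Sox18 sits at 361 and 382 CPM in the control runs and 236 and 204 CPM in the NF2 KO runs, while Gata2, Nr2f2 and Tal1 overlap between the libraries.

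The other SOXF factors differed less. Sox7 (chr14:63943673-63950732, plus strand) was at 107 and 82.0 CPM in the control runs and at 67.8 and 69.8 CPM in the NF2 KO runs. The control runs were far apart from each other here, and the lower one was still above both NF2 KO runs. Its ratio was 0.735 (0.699 to 0.772) over both runs. It was 0.842 with control run 2 alone, and it passed the size rule with control run 1 alone (0.648) and without cluster 0 (0.665). Sox17 (chr1:4490931-4497354, minus strand), the SOXF factor best known for arterial identity, was at 105 and 104 CPM in the control runs and at 79.5 and 83.6 CPM in the NF2 KO runs. Its runs agreed closely within each library, and its ratio was 0.789 (0.753 to 0.827). With all retained cells neither Sox7 nor Sox17 reached the size rule.

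The 3 ETS factors did not move alike. Ets1 (chr9:32636221-32757820, plus strand) was at 398 and 393 CPM in the control runs and at 265 and 314 CPM in the NF2 KO runs, with a ratio of 0.750 (0.732 to 0.768). Fli1 (chr9:32422204-32542861, minus strand) was at 257 and 207 CPM in the control and at 181 and 194 CPM in the NF2 KO, with a ratio of 0.818 (0.793 to 0.843). For Fli1 the difference between the control runs was larger than the gap from the lower control run to the higher NF2 KO run.

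Erg (chr16:95359169-95586593, minus strand), whose product keeps junction genes on and inflammatory genes off in quiescent endothelium, was the only member with both NF2 KO runs above both control runs. It was at 43.9 and 53.9 CPM in the control runs and at 56.8 and 62.2 CPM in the NF2 KO runs. The gap between the nearest runs was smaller than the difference between the control runs, and the ratio of 1.23 (1.15 to 1.31) did not reach the size rule. In 16 alternatives it ranged from 1.12 to 1.90. The value of 1.90 came from cells kept one by one by their own markers, which left 521 control and 429 NF2 KO cells, and thinning to 2000 UMIs per cell gave 1.56, both past the size rule. Fli1 and Ets1 are neighbours on chromosome 9, 93.4 kb apart with no protein-coding gene between them, and both had ratios under 1.

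Over all retained cells Gata2, Tal1 and Nr2f2 had intervals that included 1. Gata2 (chr6:88193891-88207032, plus strand) was at 27.5 and 31.4 CPM in the control runs and at 32.5 and 28.4 CPM in the NF2 KO runs (ratio 1.01, 0.931 to 1.10). Tal1 (chr4:115056426-115071755, plus strand) was at 18.4 and 15.8 CPM against 18.3 and 17.0 CPM (ratio 1.02, 0.915 to 1.14), under the minimum level of the size rule. Nr2f2 (chr7:70351944-70366735, minus strand) was at 50.1 and 46.9 CPM against 51.2 and 44.2 CPM (ratio 0.963, 0.902 to 1.03). The direction for Nr2f2 turned with the clusters counted: the ratio was 0.838 (0.785 to 0.895) with the same cluster weights and 1.16 (1.08 to 1.24) without cluster 0, and without cluster 2 its interval was 0.741 to 0.864. In all 3 the runs of the libraries overlapped, and these intervals leave out, for counting error alone, ratios as low as that of Sox18.

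Counted together, 2 of the 9 members at or above 20 CPM were called lower and 0 higher, beside backgrounds of 5.27% and 2.85%. The median log2 ratio over the 10 members was −0.32, against −0.03 over all 5830 genes. For 6 of 10 members both control runs were above both NF2 KO runs, which 37.7% of all genes showed, and for 1 it was the reverse, which 27.4% showed. No member was called between the runs of a library, where 0.649% of genes were called in the control and 1.16% in the NF2 KO.

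**Figure D2:**
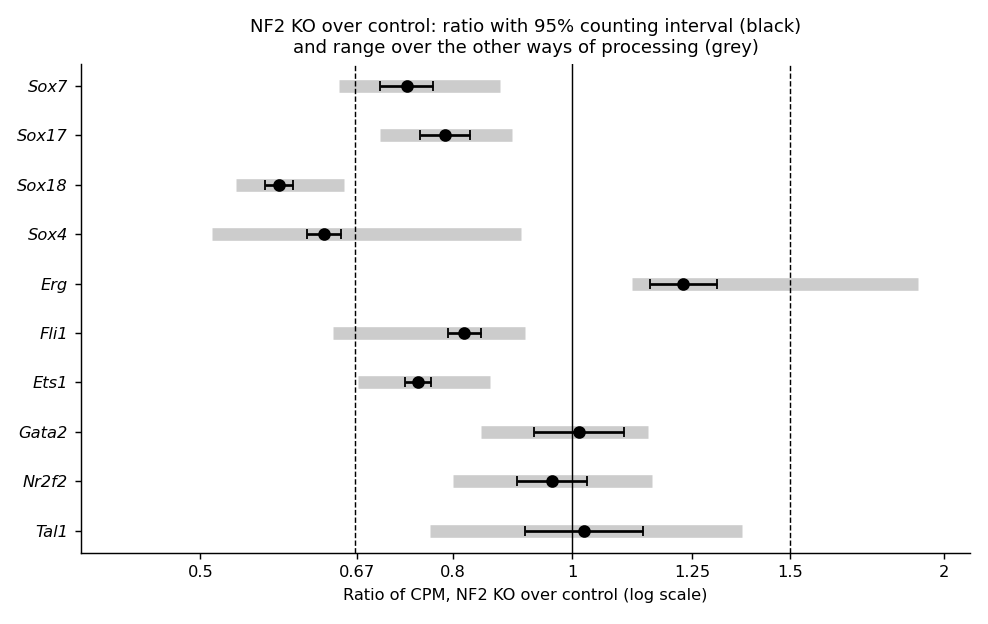
Ratio of CPM, NF2 KO over control, for each transcription factor on a log axis; black points and bars are the ratio with its 95% counting interval, grey bars the range over 16 other ways of processing, and dashed lines the size rule of 1.5 in either direction. Sox18 lies past the lower line throughout (0.534 to 0.654), Sox4 reaches from 0.511 to 0.909 and Erg from 1.12 to 1.90.

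The libraries did not hold the same mixture of cells, so the members were also read cluster by cluster. Clustering left out the members themselves, their companion genes and mitochondrial genes, and 10 clusters were retained. By markers, cluster 9 was venous-like (10 of 13 venous markers raised at least 2-fold, with Ackr1 and Selp leading). It also had 6 of 12 markers of inflamed endothelium raised, with Sele among its leading genes, 3 of 12 arterial and 5 of 10 neutrophil markers. Cluster 7 was capillary-like (7 of 13, with Cd36 and Lpl, and also the smooth muscle gene Tagln, among its leading genes). Cluster 2 (Gal, Kcnj8, Piezo2) is called by its leading genes. It had 7 of 15 tip markers raised, with Kcne3 and Chst1 among its leading genes, and also Kcnj8 and Abcc9 of the pericyte list. Over all retained cells 10 of the 15 tip markers were called lower in the NF2 KO. The 2 called higher were Esm1 (852 against 1363 CPM) and Apln (833 against 1541 CPM). Cluster 4 was hypoxic (10 of 12 markers; Vegfa, Bnip3), cluster 11 interferon-responding (11 of 12; Rsad2, Ifit3) and clusters 6 and 8 proliferating (10 and 12 of 12). Clusters 0 (Chga, Cldn4, F2rl1), 3 (Ramp3, Ednrb, Cd300lg) and 5 (Ubd, Cd74, Cxcl9) are called by their leading genes. Cluster 5 also had 8 of 12 interferon markers and 4 of 12 markers of inflamed endothelium raised, so cluster 11 was not the only one with interferon genes raised. Cluster 2 held 642 control and 16 NF2 KO cells and cluster 0 held 28 and 843, so those clusters and the libraries cannot be told apart. Ratios within a cluster are given for the 5 clusters with at least 50 cells of each library, which are 3, 4, 5, 6 and 8.

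Sox18 was lower in the NF2 KO library within each of these 5 clusters. It was at 444 CPM in control and 248 CPM in NF2 KO cells of cluster 3, at 169 and 87.2 CPM in hypoxic cluster 4 and at 362 and 220 CPM in cluster 5. In proliferating clusters 6 and 8 it was at 264 against 184 CPM and at 367 against 224 CPM. The ratios ran from 0.516 to 0.695, each interval lay below 1, and in each cluster both control runs were above both NF2 KO runs. The same held for the ratio in the other 5 clusters, where 1 library had few cells, so that the interval was below 1 in 10 of 10.

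The Sox4 ratio spread more widely over the clusters. It was 0.430 (0.382 to 0.485) in cluster 8, 0.467 in cluster 3 and 0.518 in cluster 6. In hypoxic cluster 4 it was 0.794 and in cluster 5 it was 0.875 (0.778 to 0.985), the clusters of these 5 where the libraries were closest. In interferon-responding cluster 11, with 35 and 52 cells, the Sox4 levels were 170 CPM (133 to 214) in control cells against 174 CPM (149 to 202) in NF2 KO cells, so the intervals overlapped. The difference between the lowest and the highest ratio was not tested.

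Ets1 had ratios from 0.701 to 0.859 with each interval below 1. With Sox18 and Sox4 it made 3 of 10 members whose interval was below 1 in all 5 clusters, which 5.57% of genes showed. Fli1 was 0.568 in the hypoxic cluster (118 against 67.0 CPM) and 1.02 in cluster 8 (222 against 226 CPM). Sox17 was 0.488 in cluster 5 (144 against 70.2 CPM) and 1.01 in cluster 6 (70.7 against 71.1 CPM), and its lowest ratio fell in another cluster than that of Sox18 (cluster 4). Sox7 had its lowest ratio, 0.539, in cluster 6, at 66.0 against 35.5 CPM. Control cells of that cluster had few UMIs, with a median of 2672.5 UMIs per cell against 15611 in the NF2 KO, and the part of depth in its ratios was not tested.

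Erg was above 1 in cluster 4 (1.32, 1.12 to 1.58) and its interval included 1 in the other 4 clusters. Gata2 went both ways, at 13.8 against 22.3 CPM in the hypoxic cluster and at 43.0 against 30.7 CPM in cluster 5. Of these 5 clusters, Nr2f2 had an interval below 1 in the hypoxic one alone (0.702), and the Tal1 intervals included 1 in all 5. In venous-like cluster 9, with 32 control and 96 NF2 KO cells, the Nr2f2 ratio was 0.714 (0.581 to 0.881).

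**Figure D3:**
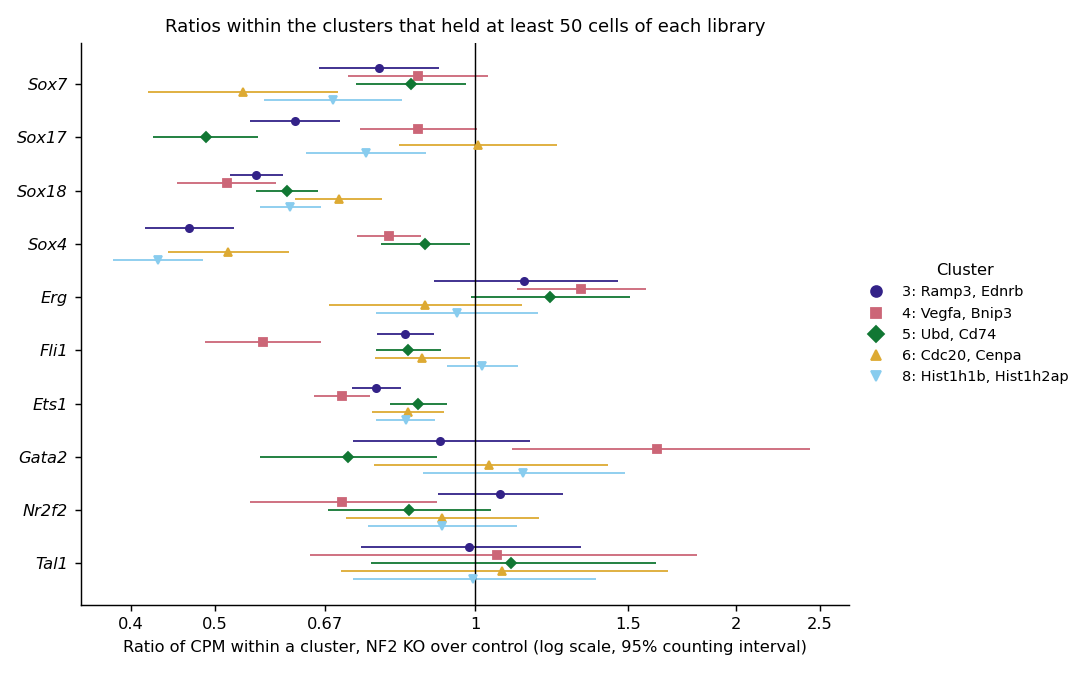
Ratio of CPM, NF2 KO over control, within the 5 clusters that held at least 50 cells of each library, on a log axis with 95% counting intervals; each colour and symbol is a cluster with its leading genes. The 5 Sox18 intervals lie below 1 (ratios 0.516 to 0.695), the Sox4 ratios spread from 0.430 to 0.875 and those of Gata2 from 0.713 to 1.62.

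Across clusters, Nr2f2 had the widest range of the members. Averaged over the libraries it was at 260 CPM in venous-like cluster 9 and at 75.5 CPM in capillary-like cluster 7, the next in order, and at 17.9 CPM in interferon-responding cluster 11. In cluster 9 it was at 303 CPM (254 to 359) in 32 control cells and at 216 CPM (193 to 242) in 96 NF2 KO cells, and no other cluster reached these intervals in either library. The order of the 10 clusters for Nr2f2 was nearly the same in both libraries (Spearman's rho 0.976, a description over clusters that share libraries). The level in cluster 9 depended on where its borders fell: it was 168 CPM at a finer resolution, 175 CPM at a coarser one and 177 CPM when all variable genes were clustered on, and the highest cluster had Ackr1 among its leading genes each time.

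The same gradient was seen when cells were split by Ackr1, in a comparison added after the data were seen. Ackr1 is a leading gene of cluster 9, so the cells with Ackr1 may largely be those of that cluster. The split is therefore no separate check. Retained cells with at least 2 UMIs of Ackr1, the atypical chemokine receptor of venules, had Nr2f2 at 216 CPM (185 to 250) in 46 control cells and at 133 CPM (122 to 145) in 213 NF2 KO cells. Cells with no Ackr1 UMI had 42.9 and 39.2 CPM in the same order. In the control runs the levels with Ackr1 were 241 and 206 CPM against 46.5 and 39.5 CPM without, and in the NF2 KO runs 142 and 129 CPM against 44.4 and 36.4 CPM. The cells with Ackr1 were higher in each run.

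In the hypoxic cluster some members had their highest and others their lowest levels. Sox4 was highest there on average, at 302 CPM averaged over the libraries against a median of 161 CPM over clusters, and so was Erg, at 84.3 CPM against 48.7 CPM, although in the control library Sox4 was higher in cluster 9 (375 against 337 CPM). Sox18 (128 CPM against 284 CPM), Fli1 (92.4 against 226), Gata2 (18.0 against 31.2) and Tal1 (9.60 against 16.4) had their lowest averages in it, although in the NF2 KO library Gata2 was lower in the 16 cells of cluster 2 (15.2 CPM) and at 21.9 CPM in cluster 11 against 22.3 CPM in cluster 4. Fli1 was at 118 CPM in control cells and at 67.0 CPM in NF2 KO cells, below every other cluster in both libraries. Erg had its highest cluster level there in both libraries, 72.5 CPM (62.3 to 84.0) for control cells and 96.1 CPM (88.3 to 104) for NF2 KO cells. Erg and Fli1 belong to 1 subfamily of ETS factors with closely related DNA-binding domains.

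**Figure D4:**
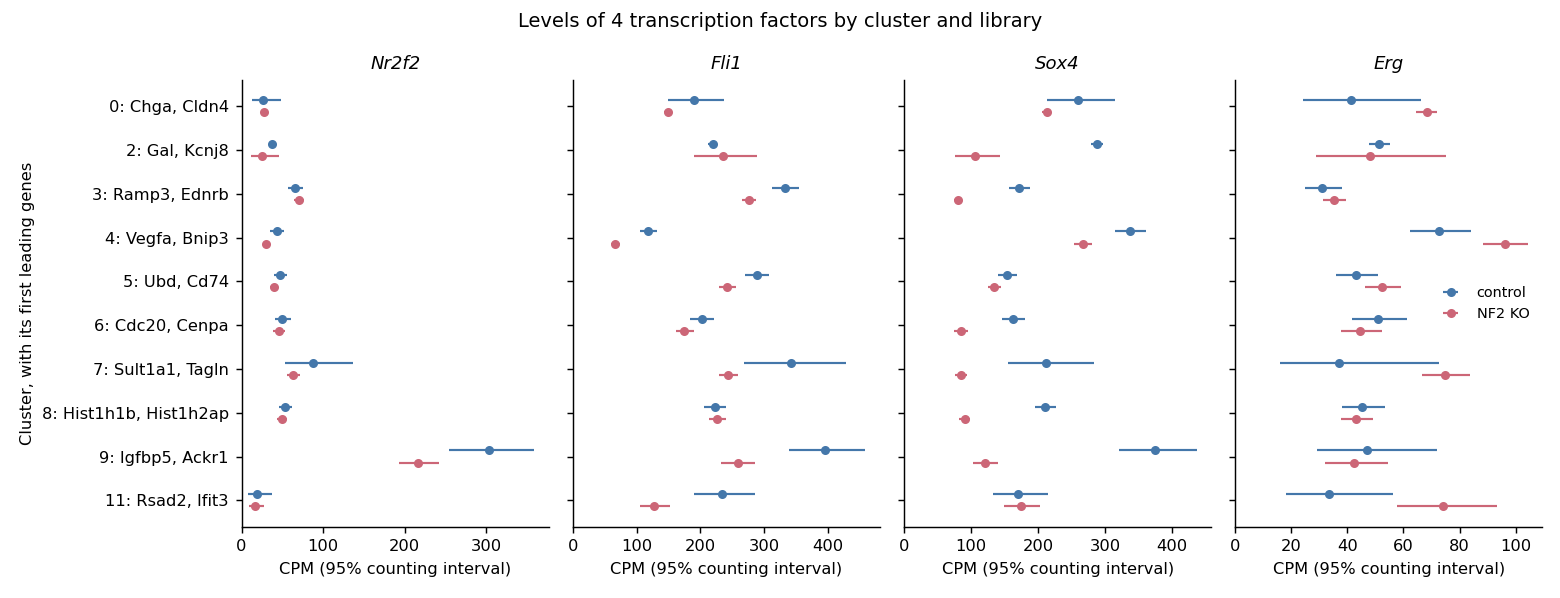
Levels of Nr2f2, Fli1, Sox4 and Erg in CPM (linear axes from 0) in the 10 retained clusters, in control (blue) and NF2 KO (red) cells with 95% Poisson intervals. Nr2f2 peaks in cluster 9 at 303 and 216 CPM, while in hypoxic cluster 4 Fli1 has its lowest levels (118 and 67.0 CPM) and Erg its highest (72.5 and 96.1 CPM).

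At the resolution used, Sox17 was highest in capillary-like cluster 7, at 162 CPM (112 to 225) in 29 control and 159 CPM (147 to 172) in 363 NF2 KO cells. The control value joined 255 CPM in 20 cells of run 1 and 84.2 CPM in 9 cells of run 2. The highest Sox17 cluster was of the same kind at a finer resolution (174 CPM), but was led by Cd300lg, with Ramp3 and Ednrb, at a coarser one (122 CPM) and by Ackr1 and Tagln when all variable genes were clustered on (115 CPM). In the control library cluster 3 was close to cluster 7, at 149 CPM, and in the NF2 KO library the 16 cells of cluster 2 were, at 147 CPM. Sox18 and Gata2 were also highest in cluster 7 on average, at 357 and 48.1 CPM, but not at the coarser resolution or with all variable genes, and their intervals overlapped those of neighbours in the order in at least 1 library. These averages rose with the 29 control cells, at 480 and 64.6 CPM. In the NF2 KO library Sox18 was at 234 CPM in cluster 7, below clusters 2, 3 and 0 (286, 248 and 247 CPM). Gata2 was at 31.5 CPM there, below clusters 9, 6 and 3 (35.8, 33.8 and 32.1 CPM). Sox7 was highest in cluster 5 on average (95.3 CPM) and ranged 1.88-fold over clusters. In the control library it was higher in cluster 2 (110 CPM) than in cluster 5 (103 CPM). At the coarser resolution its highest cluster was led by Ackr1 and Tagln (81.6 CPM). Ets1 ranged 1.56-fold, the narrowest range of the 10.

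Few neighbours in the order of clusters were apart in both libraries. Of the 9 neighbouring pairs for each gene, 1 was apart for Sox18 (cluster 3 above 8), 1 for Fli1 (0 above 4) and 1 for Nr2f2 (9 above 7), and none for the other 7 genes. The order of clusters was similar between libraries for Tal1, Fli1, Sox18 and Ets1 (Spearman's rho 0.855, 0.830, 0.818 and 0.758). It was not for Erg (0.103) and Sox4 (0.333). In the NF2 KO library Erg was also high in clusters 7, 11 and 0 (74.9, 74.0 and 68.2 CPM), where the control had 36.9, 33.5 and 41.3 CPM in 28 to 35 cells each.

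**Figure D5:**
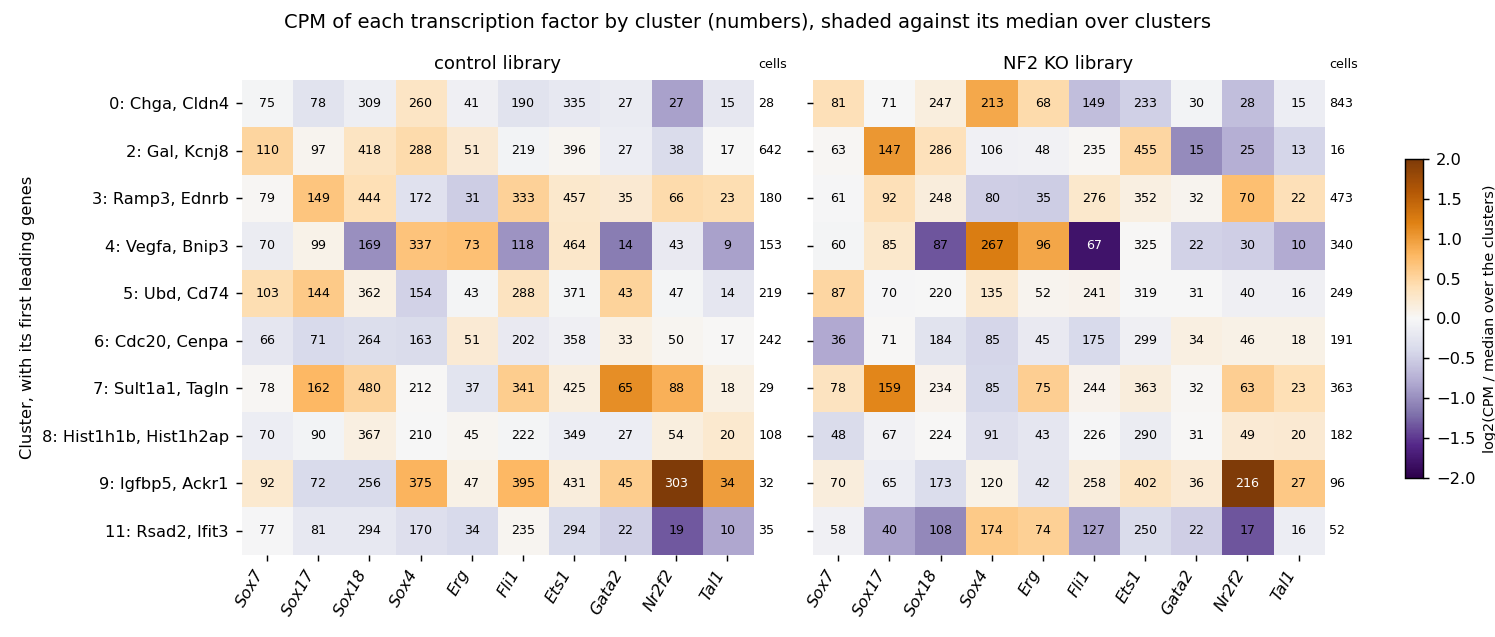
CPM of each transcription factor (numbers in the cells) in the 10 retained clusters of the control (left) and NF2 KO (right) libraries, shaded by log2 of CPM over that gene's median over clusters, with the number of cells at the right of each row. The Nr2f2 entries of cluster 9 (303 and 216 CPM) and the Fli1 entries of cluster 4 (118 and 67.0 CPM) stand out in both libraries.

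Over 24 sums of cells (cluster by library and run, with at least 50 cells), the member pairs with the highest and lowest correlation of log2(CPM + 10) were Sox18 with Fli1 (Pearson's r 0.745) and Erg with Fli1 (−0.785). Erg was also opposed to Sox18 (−0.587) and Tal1 (−0.583), and Nr2f2 went with Tal1 (0.651). The genes most like Sox18 over the same sums were Pon2 (0.922), Cd34 (0.904) and Itm2c (0.899), and those most like Fli1 were Rtl8b (0.933), Aqp1 (0.933) and Rtl8a (0.924). For Sox4 they were Fgfr1 (0.905), Ext1 (0.904) and Lims1 (0.896), and for Nr2f2 Igf2r (0.852), Calcrl (0.852) and Lepr (0.850). For Ets1 the list held Dlc1 (0.872), another ETS gene, Ets2 (0.826), and Arhgap31 (0.814), and for Erg Trappc6a (0.851), Fbxo32 (0.849) and Efemp1 (0.826). For Gata2 the genes were Tns2 (0.859), Lgals8 (0.833) and Arl4a (0.810), and for Tal1 mt-Nd1 (0.867), Mob2 (0.858) and mt-Nd2 (0.854). For Sox7 it held the immediate early genes Jund (0.875) and Egr1 (0.831), with Gpr4 (0.831), and for Sox17 Scarb1 (0.868), Mcf2l (0.846) and Hip1 (0.796). The sums share libraries, runs and depth, so these values are descriptions. Cluster 9 entered with 1 sum only, that of NF2 KO run 2, where Nr2f2 was at 194 CPM. In the other sums Nr2f2 was at no more than 75.8 CPM, and the weight of that 1 sum in the Nr2f2 values was not tested.

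Per cell, at a depth of 2000 UMIs drawn from each of 1463 control and 2760 NF2 KO cells, Sox18 was seen in 46.8% (95% Clopper-Pearson interval 44.2 to 49.4) of control and 32.1% (30.4 to 33.9) of NF2 KO cells. Sox4 was seen in 32.5% and 21.8%, Sox7 in 17.8% and 12.1% and Sox17 in 19.6% and 15.2%. For each of these the control share was the higher, as the summed level was. Without thinning, the Sox18 shares were 88.6% and 82.6%, with median depths of 17254 and 17115 UMIs. For Erg the shares were 9.30% (7.86 to 10.9) and 11.1% (9.97 to 12.4), with intervals that overlapped, while at 5000 UMIs they were 19.5% (17.4 to 21.8) and 24.9% (23.2 to 26.6), with intervals apart. At least 1 of the 3 SOXF factors was seen in 63.9% (61.4 to 66.4) of control and 48.4% (46.6 to 50.3) of NF2 KO cells, and 2 or more of the 10 members in 73.6% and 57.5%.

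Shares of this kind do not by themselves show expression. At a depth of 1000 UMIs, Sox18 was seen in 26.8% of retained control cells and in 24.8% (21.8 to 28.0) of 754 control cells in clusters led by markers of other cell types, whose median depth was 1797 UMIs against 15300.5. The control shares thus lay within counting error of each other. In the NF2 KO library they were 19.3% and 13.6% (9.43 to 18.7), with 228 cells in the latter. For Sox4 the shares were 19.3% and 17.0% (14.4 to 19.9) in the control and 4.39% (2.12 to 7.92) in the 228 NF2 KO cells, below the interval of 10.8 to 13.2 in the retained ones, and for Ets1 32.7% and 22.3% (19.4 to 25.4), then 25.8% and 17.1% (12.5 to 22.6). At this depth the Sox18 and Sox4 shares of the control do not stand above those of cells outside the retained clusters. Those clusters also held Pecam1 and Cdh5, at no less than 671 CPM in any cluster left out, so cells that lack the gene were not at hand for a background.

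The companion genes were taken from lists of relatives, partners and reported targets, and of 65 at or above 20 CPM 17 were lower and 3 higher in the NF2 KO, where 5.27% and 2.85% of all genes were called. Among 9 other ETS factors Ets2 was lower (196 against 99.0 CPM) and the other 8 did not pass. Elk3, an ETS repressor, was at 192 against 130 CPM (ratio 0.675). Among 7 partners and relatives of TAL1, the bridging protein gene Lmo2 was lower (132 against 67.8 CPM), while Tcf4 (0.717), Tcf3 (0.845), Ldb1 (0.932) and Hhex (0.950) did not pass. Zfpm1, the cofactor FOG1 of GATA factors, was at 21.2 and 19.9 CPM. The 9 other SOX genes in the tables were all under the minimum level, and Nr2f6, a relative of Nr2f2, was at a ratio of 0.798.

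Among 13 other endothelial transcription factors the homeobox genes Meox1 (85.2 against 150 CPM) and Meox2 (138 against 212 CPM) were higher and Id1, a target of BMP signalling, was lower (261 against 170 CPM). With the same cluster weights in both libraries Meox2 (1.30) did not pass. The other 10 did not pass. Mef2c was at 0.683, Bcl6b at 0.696 and Rbpj, the DNA-binding partner of Notch, at 1.03.

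Among reported targets, the lists overlap, and membership does not show that a factor acted here. Of 13 SOXF targets at that level, among them the member Nr2f2, 7 were lower, against 5.27% of all genes, with a median log2 ratio of −0.62 against −0.03. They were the claudin gene Cldn5 (1058 against 283 CPM), the ephrin gene Efnb2 (101 against 17.7 CPM), the VEGF receptor Flt1 (1131 against 629 CPM), Dll4 (0.603), Notch1 (0.618), Nrp1 (0.575) and Cdh5, the VE-cadherin gene (0.652). Robo4 was at 182 and 255 CPM and did not pass. Of 19 ETS targets 6 were lower (Cdh5, Flt1, Cldn5, Clec14a, Vwf and Arhgap28), with a median log2 ratio of −0.34. Ramp2 (1.02), Eng (1.10) and Robo4 had the highest ratios of the list.

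Of 13 targets of GATA2 or TAL1 the endothelin gene Edn1 was higher (130 against 612 CPM, a ratio of 4.69) and Vwf, Cdh5 and Lmo2 were lower. Of 6 venous genes kept by NR2F2, Aplnr (69.7 against 43.5 CPM) and Flt4 (65.2 against 32.6 CPM) were lower, and the other 4 did not pass. The NF2 KO runs were far apart for Aplnr (26.3 and 52.8 CPM, against 74.3 and 65.4 CPM in the control runs). Of 11 markers of venous endothelium at or above 20 CPM, 5 were called higher and 3 lower. Of 12 arterial and Notch genes that NR2F2 is reported to hold down, the 6 at or above 20 CPM were all lower, against 5.27% of all genes: Hey1 (43.9 against 6.11 CPM), Efnb2, Unc5b (105 against 21.7 CPM), Nrp1, Dll4 and Notch1. Their median log2 ratio was −1.54, beside an Nr2f2 ratio of 0.963. With the same cluster weights in both libraries Notch1 (0.691), Dll4 (0.777) and Nrp1 (0.827) no longer passed.

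These counts changed with the weights given to the clusters, and the part of the cell mixture in them was not tested. With the same cluster weights in both libraries, 12 of the 20 companion genes passed in the same direction and 0 others did. The 8 that did not pass were Notch1, Dll4, Nrp1 and Meox2, given above, and Flt1 (0.868), Cdh5 (0.720), Flt4 (0.744) and Arhgap28 (0.777). Cldn5 (0.447), Efnb2 (0.271), Hey1 (0.261), Lmo2 (0.541), Meox1 (1.56) and Edn1 (2.71) still did. Of the members, Sox18 was at 0.631 and Sox4 at 0.584 under these weights, and both still passed. The NF2 KO level of cluster 2 rests on 16 cells and the control level of cluster 0 on 28, which limits these weighted ratios. Without the clusters that were over 90% of 1 library, 16 companion genes passed.

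Other markers differed between the retained cells of the libraries. The pericyte or smooth muscle list had summed levels of 174 CPM in control and 62.6 CPM in NF2 KO cells, with Kcnj8 (109 and 14.5 CPM) and Abcc9 (50.9 and 12.8 CPM) lower and Tagln (4.03 and 24.7 CPM) higher in the NF2 KO cells. Acta2 (4.74 and 4.46 CPM) and Rgs5 (4.61 CPM in the control cells) were under 5 CPM in both libraries, and the other 5 genes of the list, Pdgfrb and Cspg4 among them, were each under 0.5 CPM in both. The epithelial list was at 7.69 and 33.4 CPM, mostly Cldn4 (5.39 and 30.3 CPM), with Epcam at 0.0339 and 0.0937 CPM. The neutrophil list was at 102 and 92.8 CPM. Of the mast cell markers, which matter for Gata2, 6 genes, among them Cpa3 and Gata1, had 0 UMIs in both libraries, which allows up to 0.102 and 0.0562 CPM. Kit, which endothelium also expresses, was the one mast cell marker over 5 CPM. The part of these cells in the member ratios was not tested.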

How the data were processed

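The authors deposited 1 table of natural log values per library, each the natural log of 1 plus a gene's UMIs per 10000 UMIs of the cell, as tested on the values, and whole counts were recovered from 100% of them within 0.01 UMI. Cell Ranger 3.0.0, Seurat 3.1.1 and mm10 are named per the submitters' processing notes, and whether counting used strand is not stated. The tests had been chosen for counts, so the recovered counts were used. The run numbers in the barcodes have no stated meaning.

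Cells had to have 500 or more genes, 1000 or more UMIs and no more than 10% of mitochondrial UMIs. The automatic doublet threshold marked 0 cells, so the 5% with the highest doublet scores were removed per library (129 and 166 cells). Clustering used scanpy 1.11.5 and leidenalg 0.10.2 (2000 variable genes, 30 components, 15 neighbours, resolution 0.8, no integration). Of 17 clusters, 4 were shallow (median UMIs per cell under 0.333 of their library's) and 3 more were led by markers of another cell type. These 7 were left out, with 775 control and 341 NF2 KO cells. UMIs were summed as CPM, with exact Poisson intervals for levels and exact conditional intervals for ratios (scipy 1.17.1, Python 3.11.15). The interval code was tested on simulated data.

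All 10 members were named. From each companion list the text could name genes past the size rule and the 3 highest and 3 lowest ratios, and for each member the 3 genes of most like pattern. The members and lists were chosen with earlier results of these data known. Promoter sequences are from RefSeq and gene positions from GENCODE. Alternatives changed the scaling, the weighting of cells and clusters, the cells kept, the depth, the runs, the clustering and the size rule.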

Additional observations from a re-analysis of the deposited data

Results flagged for a closer look

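The Gata2 ratio, NF2 KO over control, was 1.62 (1.10 to 2.44) in hypoxic cluster 4 and 0.713 (0.563 to 0.903) in cluster 5, led by Ubd and Cd74. The intervals lay on opposite sides of 1, and the difference between the clusters was not tested.

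The cells left out as shallow or as led by markers of other cell types also held SOXF transcripts. Sox7, Sox17 and Sox18 together were at 516 CPM there in the control library and at 254 CPM in the NF2 KO library, against 570 and 367 CPM in the retained cells. A count of 0 would have allowed up to 1.39 and 2.20 CPM. Leukocyte markers in the cells left out summed to 1091 and 813 CPM and endothelial markers to 9047 and 6034 CPM, with medians of 1803 and 2788 UMIs per cell. The source of these transcripts was not tested.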

How the results depend on the processing

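The number of members called lower, 2 with all retained cells, was 1 without run 1 of the control library, 1 without run 2 of the NF2 KO library and 1 without cluster 2. It was 3, with Sox7 added, without run 2 of the control library and without cluster 0, and 5 with a lower minimum ratio. With cells gated one by one it was 2, but these were Sox18 and Fli1, with Sox4 at 0.909. The number called higher, 0 with all retained cells, was 1 after thinning to 2000 UMIs and 1 with cells gated one by one, Erg in both. The 20 companion genes past the size rule became 12 with the same cluster weights, 34 with a lower minimum ratio and 34 with no minimum CPM. Neither Sox18 nor Sox4 changed direction, Nr2f2 lay on either side of 1 by the clusters counted (0.838 with the same cluster weights, 1.16 without cluster 0), and the causes of these changes were not tested. In 16 alternatives Sox18 ranged from 0.534 to 0.654, Ets1 from 0.671 to 0.857, Fli1 from 0.640 to 0.915 (past the size rule with cells gated one by one) and Gata2 from 0.843 to 1.15. Without the clusters that were over 90% of 1 library, an alternative chosen after the data were seen, Sox18 was at 0.591 and Sox4 at 0.633. TMM scaling gave Sox18 0.580 and Sox4 0.630. No paired analysis was possible because each group was 1 library. Depth limits Tal1 and Gata2 most, which had the fewest UMIs (504 and 871 in the control), and clusters with few cells of 1 library.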
